A study of Mus musculus with 20 samples.

Results

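The SLC25 genes encode the mitochondrial carrier family, and 47 of the 22416 gene rows of a ribosome profiling count table from mouse embryonic stem cells (mESCs) belong to it. Members were taken by name, as every row called SLC25A followed by a number. Ribosome profiling counts the mRNA fragments protected by ribosomes (footprints). Knock-in cells (KI, eIF2αA/A) carry alanine in place of the serine through which kinases control the translation initiation factor eIF2α, and wild-type cells (WT, eIF2α+/+) keep that serine. Each genotype was grown for 6 days in leukaemia inhibitory factor alone (LIF) or in LIF with the inhibitors PD0325901 and CHIR99021 (LIF/2i), which act on MEK and GSK3. All groups shared a serum-free medium with KnockOut serum replacement and 1000 U/mL LIF, and cycloheximide was present at harvest. The 4 groups, KI in LIF, WT in LIF, KI in LIF/2i and WT in LIF/2i, each had 2 libraries digested with RNase I and 3 digested with micrococcal nuclease (MNase), 20 libraries in all. The labels do not say how many clones stand behind a genotype or whether replicates were separate cultures, so a p-value here reflects only how far these libraries lie apart, which may be technical. The sample titles also do not say whether same-numbered MNase and RNase I libraries came from the same culture. Fits of both nucleases together treat all libraries as independent, so their p values may be too small. A like reading with both nucleases may likewise not be a separate replication.

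Mitochondrial carriers are small proteins of the inner mitochondrial membrane that exchange metabolites between the matrix and the cytosol. They bring in phosphate and ADP and send out ATP, and they move citrate, malate, aspartate, glutamate, nucleotides, vitamins, iron and acyl groups bound to carnitine. They are made on cytosolic ribosomes and reach the membrane through the receptor TOM70, the small TIM chaperones and the TIM22 complex. Naive mESCs, which LIF/2i maintains, use both glycolysis and oxidative phosphorylation. Phosphorylation of eIF2α lowers general initiation and favours mRNAs such as Atf4, whose product controls genes of amino acid and one-carbon metabolism, and the alanine blocks that phosphorylation.

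The MNase libraries held 6560173 to 8894080 counts in KI and 2127850 to 5461210 in WT, so that depth and genotype cannot be told apart there. RNase I depth differed by medium within each genotype. In KI the RNase I libraries held 1965050 to 2285755 counts in LIF and 4366587 to 16359039 in LIF/2i. In WT they held 4011036 to 4437767 counts in LIF and 8956594 to 22916734 in LIF/2i. Depth and medium can therefore not be told apart with RNase I. All 10 pluripotency markers checked, among them Pou5f1, Nanog and Esrrb, had footprints in every group, as the label of the cells requires. Counts per library total can fall through less mRNA, less translation or fewer cells with the mRNA, and these cannot be told apart in footprints of a whole culture. Levels are counts per 1000000 of the TMM-adjusted library total (CPM), scaled separately for each nuclease. A difference is called where the adjusted p of edgeR's quasi-likelihood test, over all genes tested with that nuclease, is under 0.05.

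The promoters of the 3 carriers with the smallest p among those lower in LIF than in LIF/2i within KI are shown first, since these members turned up again in other comparisons. RefSeq promoters of GRCm38.p6 were matched for 36 of the 47 members, and the 250 bases before the start are printed 5′ to 3′ on the strand of the gene. Slc25a20 (chr9:108661886-108662135, plus strand) encodes the carnitine-acylcarnitine carrier, Slc25a36 (chr9:97111042-97111291, minus strand) a pyrimidine nucleotide carrier, and Slc25a3 (chr10:91123968-91124217, minus strand) the phosphate carrier. Capitals mark matches to 5 motifs searched on both strands.
Slc25a20: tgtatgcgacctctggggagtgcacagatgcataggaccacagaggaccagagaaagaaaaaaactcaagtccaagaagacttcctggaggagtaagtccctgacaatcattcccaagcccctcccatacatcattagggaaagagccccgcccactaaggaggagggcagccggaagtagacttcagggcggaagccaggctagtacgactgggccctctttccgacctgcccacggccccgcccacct
Slc25a36: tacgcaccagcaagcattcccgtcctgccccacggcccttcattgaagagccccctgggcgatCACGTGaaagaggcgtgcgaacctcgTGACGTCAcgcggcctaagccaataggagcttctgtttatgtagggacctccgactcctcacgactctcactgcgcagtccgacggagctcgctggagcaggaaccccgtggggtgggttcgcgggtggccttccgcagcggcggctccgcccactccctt
Slc25a3: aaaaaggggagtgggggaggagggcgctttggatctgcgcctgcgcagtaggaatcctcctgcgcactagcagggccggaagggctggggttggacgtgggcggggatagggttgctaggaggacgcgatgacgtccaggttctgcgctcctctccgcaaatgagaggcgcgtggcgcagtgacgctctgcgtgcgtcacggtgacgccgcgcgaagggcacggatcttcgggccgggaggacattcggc
The Slc25a36 promoter held an E-box, CACGTG, 187 to 182 bases before the start and a cyclic AMP response element, TGACGTCA, 161 to 154 bases before it. The other 2 printed promoters held none of the 5 motifs. Over the family, CACGTG was found in 7 of 36 matched members (19.4%), which were Slc25a1, Slc25a13, Slc25a14, Slc25a15, Slc25a31, Slc25a33 and Slc25a36, and in 6.86% of the promoters of 27025 genes. TGACGTCA was found in Slc25a25 and Slc25a36, 5.56% of the matched members, and in 1.77% of all genes. No matched member held TNAAGGTCA, TGATGNAAT or the NRF1 site, which 1.3%, 0.910% and 0.877% of all genes held. The motifs do not overlap each other in these promoters, and a match describes letters only.

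The family as a whole took a small and similar share of the footprints everywhere. With MNase it was 0.237 ± 0.0197% of counts in KI in LIF, 0.273 ± 0.00311% in WT in LIF, 0.258 ± 0.00499% in KI in LIF/2i and 0.262 ± 0.00677% in WT in LIF/2i (SD, n = 3). With RNase I the means were 0.25% in KI in LIF, 0.293% in WT in LIF, 0.276% in KI in LIF/2i and 0.274% in WT in LIF/2i (n = 2). KI in LIF had the lowest mean with both nucleases, and its libraries lay below those of WT in LIF with both. The share mostly follows a few members, since Slc25a3, Slc25a13, Slc25a4 and Slc25a20 held 61.3% of the family's counts over the 20 libraries.

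Not every carrier was read well enough to test. The filter on low counts left 37 members in the MNase fit and 35 in the RNase I fit, of 12806 and 12095 genes tested. Slc25a2, Slc25a18, Slc25a21, Slc25a29, Slc25a34, Slc25a45, Slc25a47, Slc25a48, Slc25a53 and Slc25a54 were tested with neither nuclease, and Slc25a27 and Slc25a41 with MNase only. Slc25a54 had 0 counts in all 20 libraries together, which allows a level of up to 0.0228 CPM over their 131565112 counts, a limit that covers counting error only. Slc25a18, a mitochondrial glutamate carrier, had 4 counts in all, Slc25a21, the oxoadipate carrier, had 8, and Slc25a2, an ornithine carrier, had 12. Among the rest, total counts over the 20 libraries reached 81470 for Slc25a3, and since counts also grow with coding length they are not compared between genes.

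In LIF/2i, 1 carrier rose and 5 fell in KI relative to WT with MNase. The riser was the phosphate carrier Slc25a3, by a log2 fold change of 0.68. Among the fallers, Slc25a33 and Slc25a42 carry pyrimidine nucleotides and coenzyme A, Slc25a39 carries glutathione, and Slc25a27 is the brain-type uncoupling protein relative UCP4. These 6 are 16.2% of the 37 tested members, where 25.4% of all tested genes were called (13.8% higher, 11.5% lower). The members' median log2 fold change was -0.17, against 0.01 over all genes. The groups did not overlap in 14 tested members, and in 39.8% of all genes. With RNase I no member was called (0 of 35 by edgeR, 4 of 35 at an unadjusted p under 0.05, and 1 by DESeq2, Slc25a33), where 0.232% of all genes were (0.116% in each direction). The groups did not overlap in 9 of those members, and in 43.5% of all genes.

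Slc25a3 supplies the phosphate that ATP synthase joins to ADP. Its levels with MNase were 701, 742 and 714 CPM in KI in LIF/2i, against 505, 450 and 396 CPM in WT in LIF/2i. All KI libraries lay above all WT libraries (edgeR log2 fold change 0.68, SE 0.11, adjusted p = 0.0017), and with both nucleases in a single fit the log2 fold change was 0.41 (adjusted p = 0.012). With RNase I the levels were 712 and 765 CPM in KI, against 705 and 779 CPM in WT. These overlapped, and the log2 fold change was -0.01 (SE 0.13, edgeR adjusted p = 0.99). The RNase I effect minus the MNase effect was -0.68 on the log2 scale (SE 0.16). That difference did not pass the test over all genes (edgeR unadjusted p = 0.00067, adjusted p = 0.076), so the nucleases are not shown to differ.

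Slc25a33 imports pyrimidine nucleotides into the matrix. With MNase it was at 20.5, 13.6 and 13.5 CPM in KI in LIF/2i, against 35.1, 30.2 and 25.3 CPM in WT in LIF/2i, with no overlap. It fell by 0.93 on the log2 scale (SE 0.23, edgeR adjusted p = 0.011), a call that was lost without KI in LIF/2i replicate 2 (adjusted p = 0.056). With RNase I the levels were 19.5 and 13.2 CPM in KI, against 38.9 and 38.9 CPM in WT. These did not overlap either, at a log2 fold change of -1.22 (SE 0.27) that was not called by edgeR (adjusted p = 0.11). Of the members called here and tested with RNase I, it had the lowest RNase I log2 fold change.

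Slc25a42, the coenzyme A carrier, was at 5.96, 2.18 and 2.82 CPM in KI in LIF/2i, against 7.80, 10.3 and 8.85 CPM in WT in LIF/2i. The 3 KI libraries lay below the 3 WT libraries (edgeR log2 fold change -1.31, SE 0.39, adjusted p = 0.026), and both nucleases fitted together gave -0.85 (adjusted p = 0.043). Its RNase I levels of 6.39 and 2.32 CPM in KI and 5.20 and 5.77 CPM in WT overlapped (log2 fold change -0.24, SE 0.45). Leaving out replicate 2 or 3 of KI in LIF/2i or of WT in LIF/2i ended the Slc25a42 call, at adjusted p values up to 0.11.

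Slc25a27 was read at very low depth, with 157 counts over all libraries. Its MNase levels were 0.305, 0.768 and 0.565 CPM in KI in LIF/2i, against 2.48, 1.17 and 4.18 CPM in WT in LIF/2i. The KI libraries were all lower (edgeR log2 fold change -2.21, SE 0.60, adjusted p = 0.018), and the call was lost without replicate 3 of WT in LIF/2i (adjusted p = 0.11) or of KI in LIF/2i (adjusted p = 0.052). Both nucleases fitted together gave -1.34 (adjusted p = 0.046). Its untested RNase I levels were 0.491 and 0.929 CPM in KI and 0.543 and 0.808 CPM in WT, which overlapped.

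In LIF without inhibitors, Slc25a20 and Slc25a39 fell in KI relative to WT with MNase, and no carrier rose. They are 5.41% of the 37 tested members, where 13.4% of all tested genes were called (7.36% higher, 6.05% lower), and the members' median log2 fold change was -0.09, against -0.01 over all genes. The groups did not overlap in 11 tested members, and in 35.5% of all genes. With RNase I 0 of 35 members were called by edgeR, 5 had an unadjusted p under 0.05 and 2 were called by DESeq2, where edgeR called 0.116% of all genes, each of them lower. The groups did not overlap in 17 members, and in 46.5% of all genes. The 2 that DESeq2 called were again Slc25a20 and Slc25a39.

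Slc25a20 exchanges acylcarnitines for carnitine and so feeds the oxidation of long-chain fatty acids. Its MNase levels were 162, 140 and 178 CPM in KI in LIF, against 287, 289 and 312 CPM in WT in LIF. The 2 groups lay well apart (edgeR log2 fold change -0.89, SE 0.14, adjusted p = 0.0024). RNase I gave 224 and 194 CPM in KI, against 459 and 443 CPM in WT. They were again apart, at a log2 fold change of -1.11 (SE 0.20) that edgeR did not call among 8 libraries (adjusted p = 0.12). The call with MNase held under all alternatives tried, with an adjusted p of at most 0.013.

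Slc25a39 carries glutathione into mitochondria. With MNase it was at 128, 170 and 178 CPM in KI in LIF, against 302, 279 and 262 CPM in WT in LIF. No library of one genotype reached the other (edgeR log2 fold change -0.82, SE 0.18, adjusted p = 0.010), and the call was lost without WT in LIF replicate 1 (adjusted p = 0.052). With RNase I the levels were 72.9 and 72.0 CPM in KI, against 146 and 117 CPM in WT, which did not overlap and gave a log2 fold change of -0.86 (SE 0.21; adjusted p = 0.18 by edgeR). Slc25a39 was the only carrier called in both media. In LIF/2i it was at 158, 182 and 210 CPM in KI and 274, 338 and 209 CPM in WT with MNase, where the groups touched (edgeR log2 fold change -0.58, SE 0.18, adjusted p = 0.031). That call was lost without replicate 1 or 2 of KI in LIF/2i or of WT in LIF/2i (adjusted p up to 0.14). With RNase I in LIF/2i the levels were 111 and 99.6 CPM in KI and 121 and 168 CPM in WT, which did not overlap (log2 fold change -0.46, SE 0.20, edgeR adjusted p = 0.39).

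**Figure D1:**
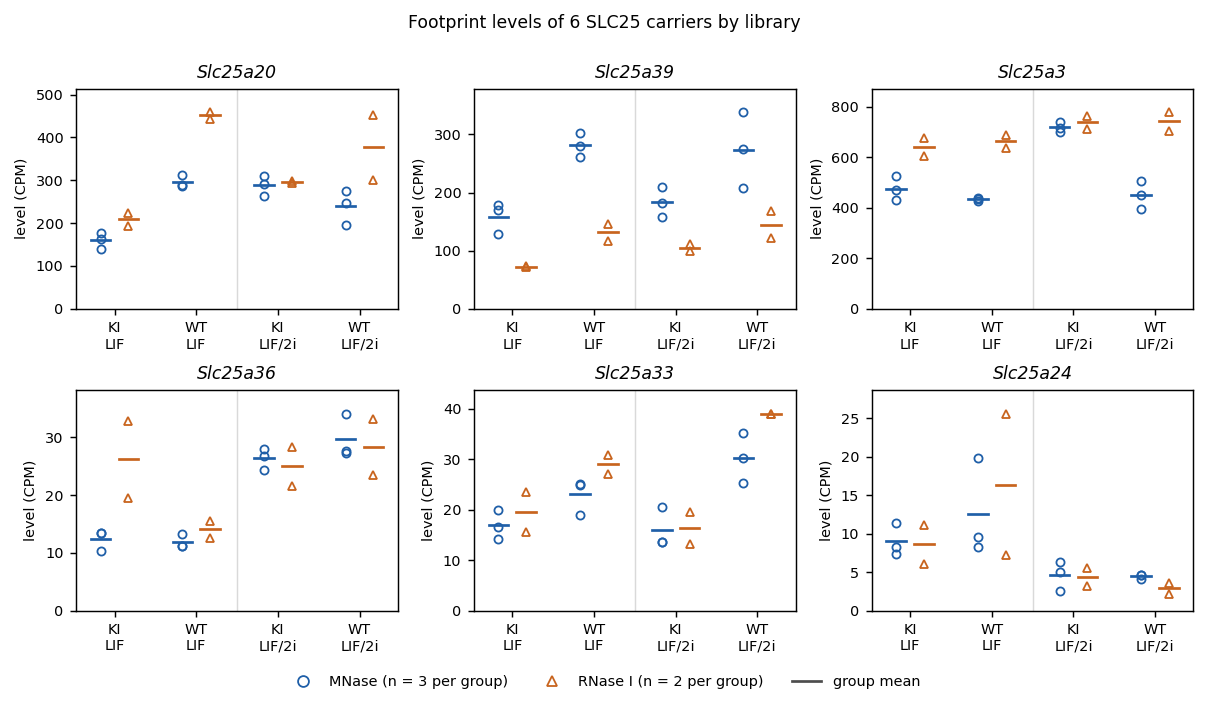
Levels in CPM of 6 carriers in each library (linear axes from 0; circles, MNase, n = 3 per group; triangles, RNase I, n = 2 per group; lines, group means; the nucleases were scaled separately). Slc25a20 and Slc25a39 lie lower in KI than in WT in LIF with both nucleases, whereas the KI libraries of Slc25a3 in LIF/2i lie above WT with MNase only.

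Marker sums of other cell types did not all move in the same direction in LIF. Endoderm, trophoblast and mesoderm sums were lower in KI than in WT, at 8.38 to 11.2 CPM against 12.8 to 20.1 CPM for mesoderm with MNase. Neuroectoderm means were higher in KI, at 61.2 CPM against 34.6 CPM in WT with MNase. With RNase I they were 64.65 CPM in KI and 40.6 CPM in WT, and libraries overlapped with both nucleases. Fibroblast sums overlapped too. Of 9 endoderm markers, 8 had footprints in KI in LIF, with Afp at 0, and 9 in WT in LIF, and their summed MNase level was 59.5 to 69.0 CPM in KI, against 189 to 272 CPM in WT. With RNase I Afp was at 0 in both genotypes, and the endoderm sum was 74.7 to 75.9 CPM in KI, against 412 to 453 CPM in WT. With MNase all 8 trophoblast markers had footprints in both, at a summed 277 to 308 CPM in KI in LIF and 467 to 658 CPM in WT in LIF. With RNase I 7 of the 8 had footprints in KI in LIF, with Cdx2 at 0, and 8 in WT in LIF, at a summed 287 to 297 CPM in KI and 546 to 580 CPM in WT. In those KI libraries 3 counts are 1.31 and 1.53 CPM, and the lowest trophoblast gene in WT in LIF averaged 0.471 CPM. A marker at 0 is therefore not read as absent or lower in KI. The highest single trophoblast gene made up most of the mean MNase sum, at 230 of 290 CPM in KI in LIF and 385 of 561 CPM in WT in LIF. So did the highest mesoderm gene, at 7.55 of 10.3 CPM in KI and 15.4 of 17.4 CPM in WT. The highest endoderm gene was at 39.5 of 64.3 CPM in KI and 118 of 237 CPM in WT. Eomes is in both the trophoblast and the mesoderm list. In LIF/2i the endoderm sum was 38.5 to 60.5 CPM in KI and 66.0 to 68.1 CPM in WT with MNase. The part of these markers' cells in the carrier differences between genotypes and between media was not tested.

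Within the role groups, the adenine nucleotide translocases and calcium-regulated ATP-Mg carriers, grouped with Slc25a3, had no called member besides Slc25a3 in either genotype comparison with MNase (8 of 9 tested). Slc25a31, the germ cell translocase ANT4, had the highest fold change in KI against WT in LIF/2i with both nucleases. Its levels with MNase were 8.25, 31.2 and 37.7 CPM in KI in LIF/2i and 6.03, 7.04 and 17.5 CPM in WT in LIF/2i. With RNase I they were 4.05 and 41.3 CPM in KI and 5.20 and 5.54 CPM in WT. Replicate 1 of KI was within the WT range or below it with both nucleases, and the other KI libraries lay above all WT libraries. The log2 fold change of 1.3 (SE 0.50) with MNase was not called (edgeR adjusted p = 0.073), and it was 1.70 (SE 0.36, adjusted p = 0.0028) when KI replicate 1 was left out in both media. That fit drops the lowest KI library in LIF/2i, which raises the value by itself, so its p is no support for a difference. In LIF the 3 KI libraries read 32.8, 34.2 and 39.1 CPM and the 3 WT libraries 14.6, 22.2 and 33.4 CPM, which overlapped (log2 fold change 0.56, edgeR adjusted p = 0.46).

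The citrate carrier Slc25a1 was the member closest to the threshold in LIF/2i and in LIF among those not called. It was at 111, 98.7 and 129 CPM in KI and 150, 142 and 145 CPM in WT in LIF/2i, whereas in LIF the readings were 90.9, 106 and 100.0 CPM in KI and 145, 132 and 118 CPM in WT. The groups did not overlap in either medium, at log2 fold changes of -0.37 and -0.41 (edgeR adjusted p = 0.054 in both). With RNase I it was at 156 and 176 CPM in KI and 157 and 145 CPM in WT in LIF/2i, which overlapped, and at 101 and 118 CPM in KI and 169 and 153 CPM in WT in LIF, which did not. None of the 6 tested amino acid carriers was called between genotypes in either medium, with log2 fold changes from -0.46 to 0.62 in LIF/2i and from -0.14 to 0.63 in LIF. The glutamate carrier Slc25a22 gave the upper end of both ranges. Leaving out KI replicate 1 of each medium made it a call, higher in KI, by 0.77 in LIF/2i (edgeR adjusted p = 0.0062) and by 0.88 in LIF (edgeR adjusted p = 0.0040). That fit drops its lowest KI library in each medium, which raises the values by itself, so these p values are no support for a difference. With RNase I its levels were 22.9 and 44.6 CPM in KI and 20.9 and 28.9 CPM in WT in LIF/2i, which overlapped. In LIF they were 28.7 and 46.9 CPM in KI and 25.2 and 28.0 CPM in WT, which did not.

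**Figure D2:**
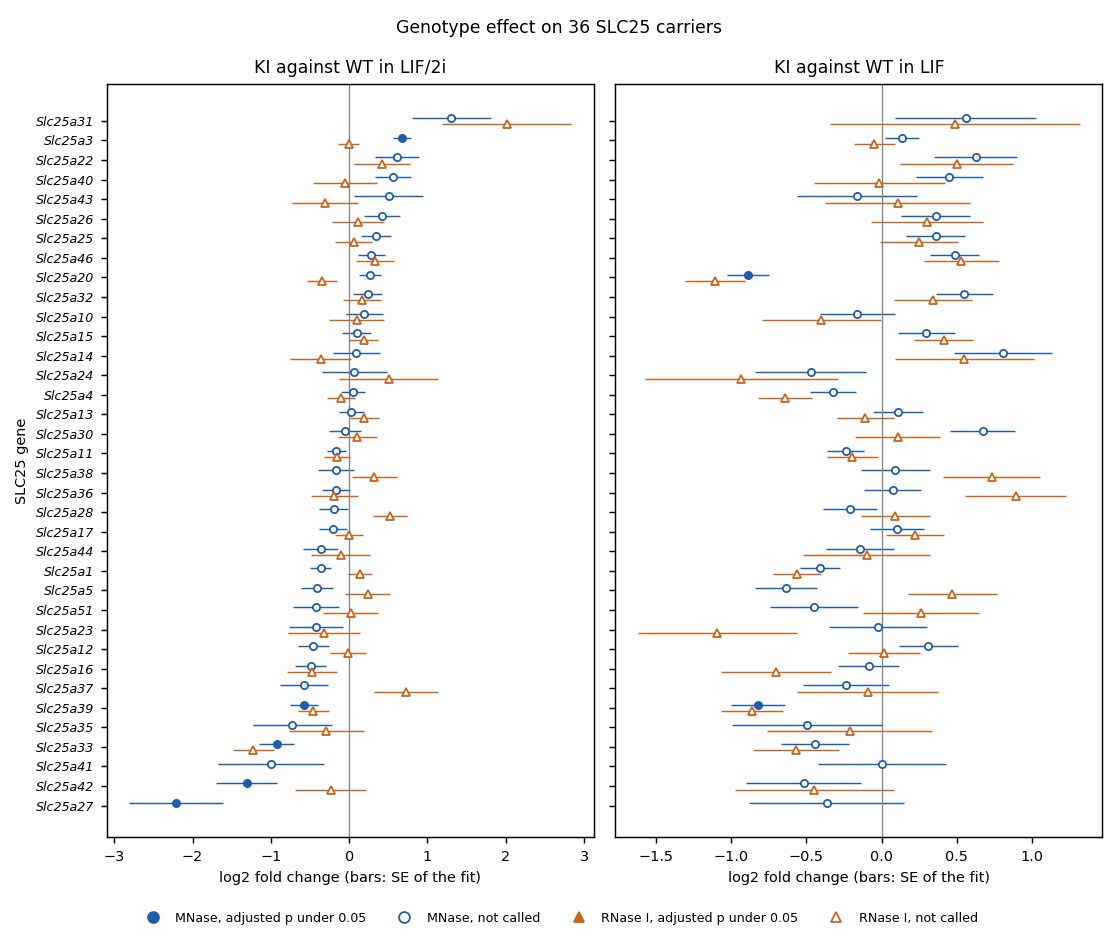
Log2 fold change of KI against WT for 36 tested carriers in LIF/2i (left) and LIF (right), with the SE of the fit (circles, MNase; triangles, RNase I; filled where edgeR's adjusted p was under 0.05). In LIF/2i 5 MNase points are filled, from Slc25a27 at -2.21 to Slc25a3 at 0.68, and in LIF only Slc25a20 and Slc25a39 are.

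The move out of LIF/2i was compared within each genotype. In KI 4 carriers rose and 4 fell in LIF relative to LIF/2i with MNase, 21.6% of the 37 tested members, where 18.7% of all tested genes were called (8.37% higher, 10.3% lower). The carnitine carrier Slc25a20, the pyrimidine carrier Slc25a36, the phosphate carrier Slc25a3 and the dicarboxylate carrier Slc25a10 fell. The iron carrier Slc25a37, the ATP-Mg carrier relative Slc25a41 and the uncoupling protein relative Slc25a27 were among those that rose. The members' median log2 fold change was 0.14, against -0.00 over all genes. Groups did not overlap in 14 tested members, and in 34.9% of all genes. With RNase I 0 of 35 members were called by edgeR (4 at an unadjusted p under 0.05, and Slc25a1 by DESeq2), where 3.46% of all genes were (1.41% higher, 2.04% lower). Groups did not overlap in 12 of those members, and in 43.3% of all genes. Within KI the MNase marker sums also differed between media, at 59.5 to 69.0 CPM in LIF and 38.5 to 60.5 CPM in LIF/2i for endoderm, 277 to 308 CPM and 97.9 to 246 CPM for trophoblast, and 4114 to 4263 CPM and 5089 to 5486 CPM for the pluripotency markers. Their part in the carrier changes was not tested.

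Slc25a20 was at 162, 140 and 178 CPM in KI in LIF, against 262, 291 and 311 CPM in KI in LIF/2i, with MNase. The LIF libraries were all lower (edgeR log2 fold change -0.85, SE 0.14, adjusted p = 0.0012). RNase I gave 224 and 194 CPM in LIF and 299 and 294 CPM in LIF/2i, also with no overlap (log2 fold change -0.50, SE 0.20, edgeR adjusted p = 0.22). The KI in LIF libraries are the same ones that stood below WT in LIF, so the comparisons share them.

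Slc25a3 was at 471, 431 and 526 CPM in KI in LIF, against 701, 742 and 714 CPM in KI in LIF/2i, with MNase. The groups were apart (edgeR log2 fold change -0.59, SE 0.11, adjusted p = 0.0030), and the LIF/2i libraries are those that stood above WT. RNase I gave 676 and 606 CPM in LIF and 712 and 765 CPM in LIF/2i, a smaller separation with no overlap (log2 fold change -0.20, SE 0.13, edgeR adjusted p = 0.48). Slc25a10, which exchanges malate or succinate for phosphate, was at 13.5, 9.26 and 10.4 CPM in KI in LIF, against 24.0, 17 and 15.2 CPM in KI in LIF/2i. The LIF libraries were lower (edgeR log2 fold change -0.76, SE 0.24, adjusted p = 0.039), and with RNase I the log2 fold change was -0.74 (SE 0.39) with overlapping libraries.

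Slc25a36 was the carrier that fell in both genotypes. With MNase it was at 13.4, 13.5 and 10.4 CPM in KI in LIF, against 24.3, 26.8 and 27.9 CPM in KI in LIF/2i. The WT readings were 13.2, 11.1 and 11.3 CPM in LIF, against 34.0, 27.6 and 27.3 CPM in LIF/2i. In each genotype every LIF library was lower than every LIF/2i library. The log2 fold change was -1.09 in KI (SE 0.18, edgeR adjusted p = 0.0013) and -1.33 in WT (SE 0.19, edgeR adjusted p = 0.00053). Both nucleases fitted together gave -0.62 in KI (adjusted p = 0.029). The nucleases parted in KI, where RNase I gave 19.5 and 32.9 CPM in LIF and 21.6 and 28.3 CPM in LIF/2i (log2 fold change 0.08, SE 0.32). In WT they were 15.5 and 12.5 CPM in LIF and 23.5 and 33.1 CPM in LIF/2i, with no overlap (log2 fold change -1.0, SE 0.32, edgeR adjusted p = 0.071). In KI the RNase I effect minus the MNase effect was 1.13 (SE 0.33, edgeR unadjusted p = 0.0032), which did not pass over all genes (adjusted p = 1.0).

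Of the carriers that rose in KI, Slc25a37 is mitoferrin 1, which brings iron to haem and iron-sulfur cluster synthesis. It was at 13.1, 16.9 and 16.4 CPM in KI in LIF, against 10.5, 4.99 and 8.05 CPM in KI in LIF/2i, with MNase (edgeR log2 fold change 0.98, SE 0.29, adjusted p = 0.031). Those libraries did not overlap, whereas with RNase I, at 7.38 and 4.83 CPM in LIF and 7.80 and 6.97 CPM in LIF/2i, they did (log2 fold change -0.27, SE 0.46). Slc25a27, at 0.923, 2.61 and 2.35 CPM in KI in LIF and 0.305, 0.768 and 0.565 CPM in KI in LIF/2i, rose by 1.79 (SE 0.57, edgeR adjusted p = 0.045). Slc25a41, with 115 counts over all libraries, was at 0.923, 2.32 and 1.45 CPM in KI in LIF, against 0.305, 0.512 and 0.423 CPM in KI in LIF/2i (edgeR log2 fold change 1.85, SE 0.56, adjusted p = 0.034). Neither group pair overlapped, and neither gene was tested with RNase I.

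The calls on Slc25a20, Slc25a36 and Slc25a3 in KI held in all 12 fits that each left out 1 library. Of the other calls described, the highest adjusted p in those fits was 0.13 for Slc25a37 (4 fits lost the call, without replicate 2 or 3 of KI in LIF or of KI in LIF/2i), 0.15 for Slc25a41, 0.14 for Slc25a10 and 0.14 for Slc25a27. Each of the last 3 was lost without replicate 2 or 3 of KI in LIF or replicate 2 of KI in LIF/2i. Slc25a41 was also lost without KI in LIF/2i replicate 1 or 3 (5 fits). Slc25a10 was also lost without KI in LIF/2i replicate 1, WT in LIF/2i replicate 2 or WT in LIF replicate 1 or 3 (7 fits). Slc25a27 was also lost without KI in LIF/2i replicate 1 or 3, WT in LIF/2i replicate 1 or any replicate of WT in LIF (9 fits). These 4 calls were also lost under settings that kept all libraries. Slc25a37 was lost after thinning to the smallest library (log2 fold change 0.68, edgeR adjusted p = 0.19) and with both nucleases fitted together (0.47, adjusted p = 0.26). Slc25a41 was lost with no filter (adjusted p = 0.052) and with DESeq2 (adjusted p = 0.075), Slc25a10 with library totals (adjusted p = 0.058) and with no filter (adjusted p = 0.052), and Slc25a27 with no filter (adjusted p = 0.051), with DESeq2 (adjusted p = 0.053) and with both nucleases fitted together (adjusted p = 0.063). Same-numbered KI libraries of the 2 media deviated together, as did replicate 2 with replicate 3 across media, and with the replicate number as a block within KI 11 members were called in place of 8. The share of all genes called with this block was not recorded, so the rise is not read as particular to the carriers. All 8 kept their calls, and the calcium-regulated ATP-Mg carriers Slc25a23 (log2 fold change 0.98, SE 0.25, edgeR adjusted p = 0.012) and Slc25a24 (0.98, SE 0.34, adjusted p = 0.049) and the aspartate-glutamate carrier Slc25a12 (0.51, SE 0.14, adjusted p = 0.019) were added as higher in LIF.

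In WT 2 carriers rose and 3 fell in LIF relative to LIF/2i with MNase, 13.5% of the 37 tested members, where 21.0% of all tested genes were called (9.99% higher, 11.0% lower). The ATP-Mg carrier Slc25a24 and the adenine nucleotide translocase Slc25a4 rose, and Slc25a36 and the uncoupling protein relatives Slc25a30 and Slc25a14 fell. The members' median log2 fold change was -0.05, against 0.01 over all genes, and groups did not overlap in 12 tested members and in 42.5% of all genes. With RNase I Slc25a24 alone was called (1 of 35 members, where 13.6% of all tested genes were called, 7.17% higher and 6.47% lower). Groups did not overlap in 19 of the 35, and in 64.8% of all genes. The endoderm marker sum within WT was 189 to 272 CPM in LIF and 66.0 to 68.1 CPM in LIF/2i with MNase, the trophoblast sum 467 to 658 CPM and 189 to 255 CPM, and the pluripotency sum 4294 to 5792 CPM and 5009 to 5453 CPM. What part they had in the carrier changes was not tested.

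Slc25a24 answers to cytosolic calcium and adjusts the adenine nucleotide pool of the matrix. It was at 9.58, 19.8 and 8.26 CPM in WT in LIF, against 4.61, 4.11 and 4.67 CPM in WT in LIF/2i, with MNase. All LIF libraries were higher, replicate 2 by far the most (edgeR log2 fold change 1.49, SE 0.41, adjusted p = 0.021). With RNase I it was at 7.21 and 25.6 CPM in LIF and 3.62 and 2.19 CPM in LIF/2i, again apart, with replicate 2 of LIF high (log2 fold change 2.45, SE 0.62, edgeR adjusted p = 0.034). Without replicate 2 of WT in LIF the log2 fold change was 0.99 with MNase (adjusted p = 0.11) and 1.25 with RNase I (adjusted p = 0.31). The MNase call was also lost without replicate 1 (adjusted p = 0.059) or 2 (adjusted p = 0.061) of WT in LIF/2i, and the RNase I call without the same ones (adjusted p = 0.13 and 0.17) or after thinning (adjusted p = 0.071).

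Slc25a4 is the translocase ANT1, which exchanges ADP for ATP. It was at 417, 565 and 381 CPM in WT in LIF, against 332, 343 and 277 CPM in WT in LIF/2i, with MNase (edgeR log2 fold change 0.52, SE 0.16, adjusted p = 0.031). RNase I gave 457 and 523 CPM in LIF and 320 and 369 CPM in LIF/2i, with no overlap with either nuclease (log2 fold change 0.51, SE 0.18, edgeR adjusted p = 0.098). The MNase call was lost without replicate 2 of WT in LIF (adjusted p = 0.14) or replicate 1 or 3 of WT in LIF/2i (adjusted p = 0.065 and 0.098). Slc25a4 and Slc25a5 are close copies of each other, and no source used here says how fragments common to both were counted, so their values are uncertain.

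Slc25a30, a kidney-type uncoupling protein relative, was at 9.58, 9.76 and 14.4 CPM in WT in LIF, against 22.3, 22.0 and 24.6 CPM in WT in LIF/2i, with MNase. The groups were apart (edgeR log2 fold change -1.0, SE 0.22, adjusted p = 0.0066), and with RNase I, at 15.5 and 15.7 CPM in LIF and 20.4 and 23.2 CPM in LIF/2i, they were too (log2 fold change -0.48, SE 0.26, edgeR adjusted p = 0.27). Slc25a14, the relative UCP5, was at 2.28, 2.98 and 4.75 CPM in WT in LIF, against 7.09, 6.75 and 9.10 CPM in WT in LIF/2i (edgeR log2 fold change -1.12, SE 0.33, adjusted p = 0.030). With RNase I it was at 6.08 and 5.41 CPM in LIF and 12.2 and 10.2 CPM in LIF/2i (log2 fold change -0.96, SE 0.42), and neither nuclease gave an overlap. The Slc25a14 call with MNase was lost without replicate 1 or 2 of WT in LIF or replicate 1 or 3 of WT in LIF/2i (adjusted p up to 0.10), whereas Slc25a30 and Slc25a36 kept theirs in all 12 such fits.

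**Figure D3:**
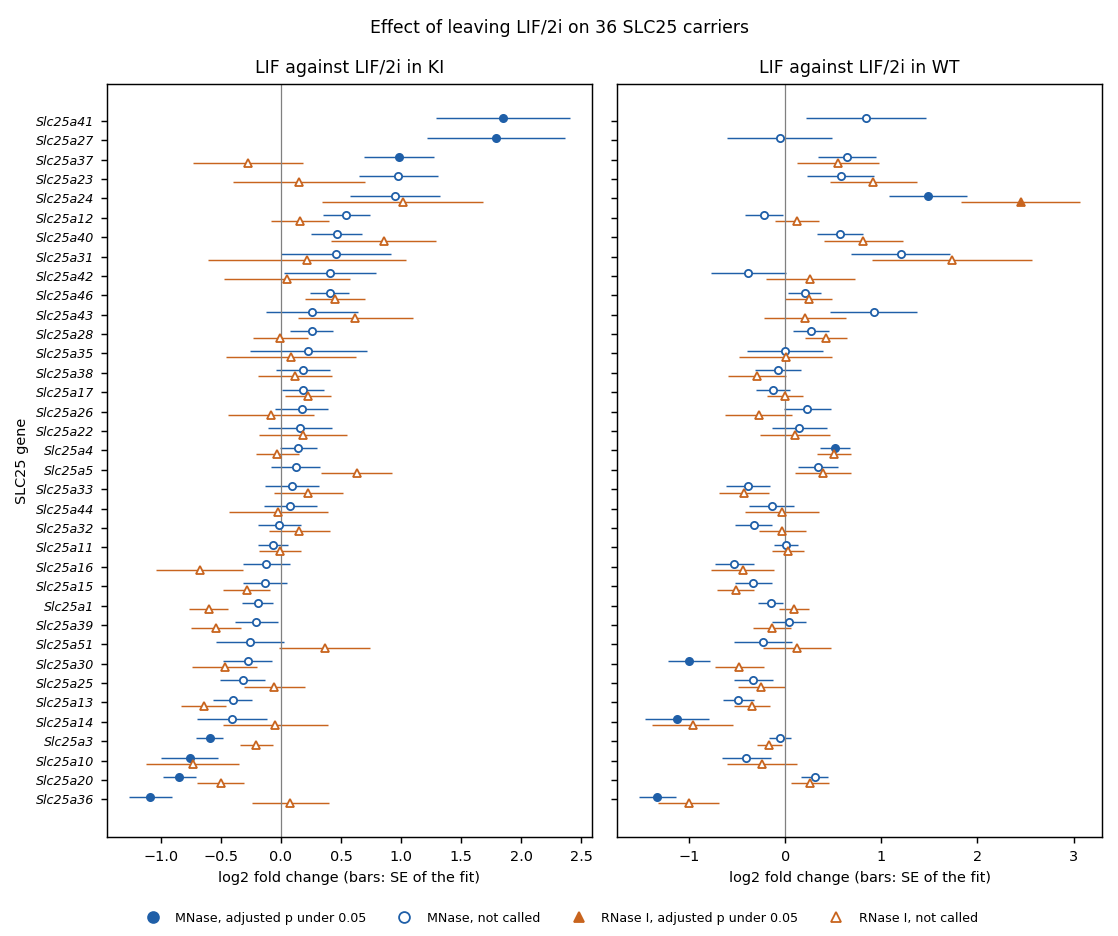
Log2 fold change of LIF against LIF/2i for 36 tested carriers in KI (left) and WT (right), with the SE of the fit (circles, MNase; triangles, RNase I; filled where edgeR's adjusted p was under 0.05). Slc25a36 is filled on the negative side in both genotypes, at -1.09 in KI and -1.33 in WT, and Slc25a20 is filled in KI only, at -0.85.

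Whether the genotypes responded differently to the medium was tested as an interaction. With MNase 1 of 37 members was called, Slc25a20, where 0.336% of all tested genes were (0.102% higher, 0.234% lower; 5 members had an unadjusted p under 0.05). The change of Slc25a20 in KI (-0.85) minus its change in WT (0.31) was -1.16 on the log2 scale (SE 0.20, edgeR adjusted p = 0.023). In WT the levels were 287, 289 and 312 CPM in LIF and 195, 275 and 247 CPM in LIF/2i, so the LIF libraries were the higher ones there. RNase I gave an interaction of -0.76 (SE 0.28, edgeR unadjusted p = 0.023, adjusted p = 0.87), and no member or other gene was called (0%; 3 members at an unadjusted p under 0.05). The MNase call was lost in 8 of 12 fits without 1 library, with adjusted p values up to 0.085 and log2 values from -1.17 to -1.02. Those were the fits without WT in LIF replicate 1, 2 or 3, WT in LIF/2i replicate 1 or 3, KI in LIF replicate 2, or KI in LIF/2i replicate 2 or 3. The interactions of the other members called in a single genotype did not pass.

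Across the 4 pairwise MNase comparisons 15 of the 37 tested members were called at least once, 9 of them in exactly 1 comparison and 6 in more, and 22 in none. That is 40.5% of the members, where 47.4% of all 12806 tested genes were called at least once. Of the tested amino acid carriers (Slc25a12, Slc25a13, Slc25a15, Slc25a22, Slc25a38 and Slc25a44) none was called in any of the 4. The peroxisomal carrier Slc25a17, the S-adenosylmethionine carrier Slc25a26, the folate carrier Slc25a32, the NAD carrier Slc25a51, the oxoglutarate carrier Slc25a11 and the outer membrane protein Slc25a46 were not called either.

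**Figure D4:**
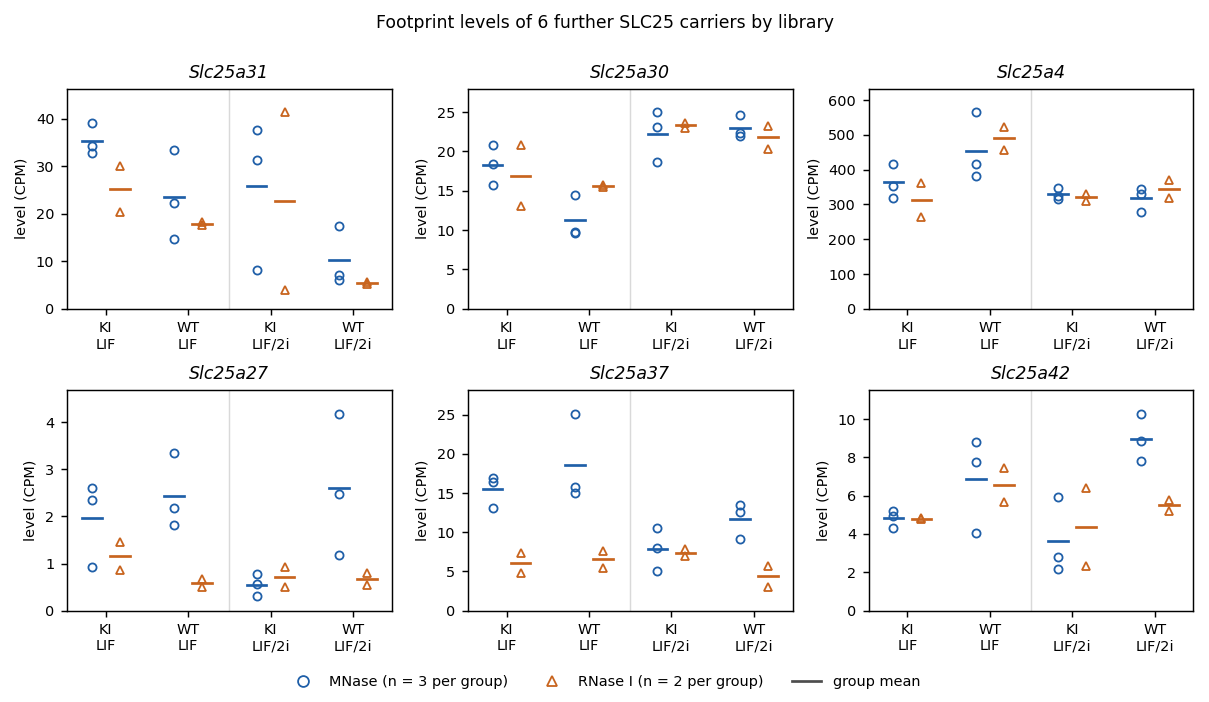
Levels in CPM of 6 further carriers in each library (linear axes from 0; circles, MNase, n = 3 per group; triangles, RNase I, n = 2 per group; lines, group means; the nucleases were scaled separately). KI in LIF/2i replicate 1 of Slc25a31 lies apart from the other KI libraries with both nucleases, at 8.25 CPM with MNase and 4.05 CPM with RNase I.

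The genes that work beside the carriers did not follow a single direction. Their counts between genotypes are from MNase unless RNase I is named, and are to be read against the 13.8% of all genes higher and 11.5% lower in LIF/2i and the 7.36% higher and 6.05% lower in LIF. With RNase I no tested gene of these lists was called by edgeR in LIF/2i, and in LIF Idh2 alone was. Of 8 tested genes of the carrier import route, 3 rose and 0 fell in KI against WT in LIF/2i (median log2 fold change 0.28, against 0.01 over all genes). Tomm70a, the receptor that binds carrier precursors, was at 527 ± 41.6 CPM in KI and 343 ± 20.04 CPM in WT (edgeR log2 fold change 0.62, SE 0.12, adjusted p = 0.0031), and the chaperone subunits Timm10 and Timm9 rose by 0.79 and 0.67. In LIF 1 of the 8 rose, again Tomm70a, at 567 ± 62.5 CPM in KI and 327 ± 29.7 CPM in WT (edgeR log2 fold change 0.79, SE 0.12, adjusted p = 0.0018), and the list's median was -0.21, against -0.01 over all genes. RNase I gave import route medians of 0.24 in LIF/2i and 0.06 in LIF. The highest RNase I log2 fold change among the 8 tested was 0.85 in LIF/2i and 0.35 in LIF. Of the 9 malate-aspartate shuttle and citrate enzymes, 4 rose and 0 fell in KI in LIF/2i (median log2 fold change 0.14 with MNase and -0.10 with RNase I), among them citrate synthase, Cs, at 332 ± 15.1 CPM in KI and 208 ± 19.5 CPM in WT (SD, n = 3). In LIF 0 rose and 1 fell, the isocitrate dehydrogenase Idh2, at 178 ± 19.5 CPM in KI and 333 ± 27.0 CPM in WT (edgeR log2 fold change -0.90, SE 0.14, adjusted p = 0.0023). With RNase I Idh2 also fell, to 283 ± 28.9 CPM in KI, against 581 ± 15.6 CPM in WT (n = 2; edgeR log2 fold change -1.04, SE 0.14, adjusted p = 0.039).

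Among the 10 genes of carnitine and fatty acid oxidation, which share their pathway with Slc25a20, 1 rose and 0 fell in KI against WT in LIF (median log2 fold change -0.06, against -0.01 over all genes). The riser was Hadha, a subunit of the trifunctional oxidation enzyme, at 216 ± 50.7 CPM in KI and 152 ± 7.08 CPM in WT (edgeR log2 fold change 0.50, SE 0.15, adjusted p = 0.049). In KI in LIF against LIF/2i, where Slc25a20 fell, 1 of the 10 rose and 2 fell (median 0.13, against -0.00 over all genes). Cpt1a, an enzyme that makes acylcarnitines, was at 148 ± 25.7 CPM in LIF and 360 ± 13.3 CPM in LIF/2i in KI (edgeR log2 fold change -1.28, SE 0.15, adjusted p = 0.00013). It also fell in WT, to 130 ± 23.9 CPM in LIF, against 293 ± 27.3 CPM in LIF/2i (edgeR log2 fold change -1.18, SE 0.16, adjusted p = 0.00026). There 1 of the 10 genes rose and 1, Cpt1a, fell. Cpt2, which takes the acyl groups back off inside the membrane, rose in KI by 0.54 (SE 0.14, edgeR adjusted p = 0.015).

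Of the 9 genes of iron-sulfur and haem synthesis, which use what Slc25a28, Slc25a37, Slc25a39 and Slc25a40 deliver, 1 rose and 0 fell in KI in LIF/2i and likewise in LIF (medians 0.04 and -0.00). In LIF it was Alas1, the first enzyme of haem synthesis, at 146 ± 14.6 CPM in KI and 107 ± 7.70 CPM in WT (SD, n = 3). Of the 8 glutamate and proline enzymes, 3 rose and 1 fell in KI in LIF (median 0.12), among them the proline enzyme Pycr1, which fell by 1.72 (SE 0.24, edgeR adjusted p = 0.0014). Of the 6 mitochondrial folate enzymes 0 were called in LIF between genotypes, and 1 rose in KI in LIF/2i, Shmt2, at 195 ± 14.04 CPM in KI and 112 ± 19.8 CPM in WT. Of 20 other mitochondrial channels and transporters, 2 rose and 3 fell in KI in LIF/2i (median -0.12) and 1 rose and 1 fell in LIF (median -0.25). Of the 3 tested carrier family genes with other names, Mtch2, an outer membrane insertase, rose in KI in LIF/2i, at 92.0 ± 5.63 CPM in KI and 50.0 ± 3.21 CPM in WT (edgeR log2 fold change 0.88, SE 0.14, adjusted p = 0.0011), and none was called in LIF.

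In WT in LIF against LIF/2i with MNase, where 9.99% of all genes were higher and 11.0% lower, these lists gave 1 higher and 0 lower of 8 for the import route, 0 and 3 of 9 for the shuttle and citrate enzymes, 2 and 1 of 6 for the folate enzymes, and 1 and 1 of 10 for fatty acid oxidation. They gave 2 and 1 of 8 for the glutamate and proline enzymes, 1 and 1 of 9 for iron-sulfur and haem synthesis, and 1 and 2 of 20 for other channels and transporters. The folate enzyme Mthfd2 was at 148 ± 27.0 CPM in LIF and 49.5 ± 13.5 CPM in LIF/2i in WT (edgeR log2 fold change 1.58, SE 0.24, adjusted p = 0.00066). With RNase I 7.17% of all genes were higher and 6.47% lower in WT. The WT counts of the lists were then 2 higher and 2 lower of 20 for other channels and transporters, 0 and 1 of 9 for the shuttle and citrate enzymes and 2 and 0 of 6 for the folate enzymes. They were 1 and 1 of 10 for fatty acid oxidation, 1 and 0 of 8 for the glutamate and proline enzymes, and 0 in the other lists. In KI in LIF against LIF/2i with MNase, where 8.37% of all genes were higher and 10.3% lower, the counts were 0 higher and 1 lower of 8 for the import route, 0 and 2 of 9 for the shuttle and citrate enzymes, 0 and 0 of 6 for the folate enzymes and 0 and 0 of 8 for the glutamate and proline enzymes. They were 1 and 2 of 9 for iron-sulfur and haem synthesis and 0 and 2 of 20 for other channels and transporters. RNase I in KI, where 1.41% of all genes were higher and 2.04% lower, gave 1 gene higher and 1 lower for fatty acid oxidation. It gave 1 lower for the shuttle and citrate enzymes and 0 in the other lists.

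The nucleases read the carriers differently, as they did many other genes. They were compared on replicates 1 and 2 of all groups, 16 libraries scaled together, so the levels here differ slightly from those above. On them 8 members were higher and 8 lower with RNase I than with MNase, 43.2% of 37 tested members, where 32.0% of 12732 genes were called (15.7% higher, 16.4% lower). All 3 tested carriers of di- and tricarboxylates were higher with RNase I (median log2 ratio 0.42, against 0.00 over all genes), and all 4 carriers of iron and glutathione were lower (median -0.79). Of the adenine nucleotide and phosphate group 3 were higher and 1 lower of 8, of the amino acid carriers 1 was higher and 1 lower of 6, and of the nucleotide and cofactor carriers 0 were higher and 2 lower of 9.

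The smallest p was that of Slc25a39, which ran from 72.5 to 171 CPM with RNase I (median 115) and from 126 to 337 CPM with MNase (median 224). The ranges overlapped over all groups, although the ratio was taken within each group (edgeR log2 ratio -0.95, SE 0.10, adjusted p = 4.8e-06). Slc25a23, an ATP-Mg carrier, ran from 2.37 to 8.37 CPM with RNase I (median 3.81) and from 4.46 to 23.5 CPM with MNase (median 11.5; edgeR log2 ratio -1.53, SE 0.25, adjusted p = 0.00018). Slc25a3 ran from 610 to 790 CPM with RNase I (median 709) and from 424 to 715 CPM with MNase (median 456; edgeR log2 ratio 0.49, SE 0.08, adjusted p = 0.00032). The high end with MNase came from KI in LIF/2i, the group in which both nucleases gave much the same reading.

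Slc25a11, which exchanges oxoglutarate for malate in the malate-aspartate shuttle, ran from 77.6 to 103 CPM with RNase I and from 56.7 to 76.2 CPM with MNase. Its ranges did not overlap on these 16 libraries (edgeR log2 ratio 0.42, SE 0.07, adjusted p = 0.00040), although under the separate scaling replicate 3 of WT in LIF/2i, which is not among them, was at 81.9 CPM with MNase. The ranges of Slc25a28, mitoferrin 2, did not overlap on them either, at 17.7 to 28.4 CPM with RNase I and 28.8 to 46.9 CPM with MNase (edgeR log2 ratio -0.63, SE 0.13, adjusted p = 0.0012). The other 11 called members were Slc25a1, Slc25a5, Slc25a10, Slc25a20, Slc25a22 and Slc25a25, which were higher with RNase I, and Slc25a17, Slc25a37, Slc25a38, Slc25a40 and Slc25a51, which were lower. Their log2 ratios ran from -1.01 for Slc25a37 to 0.67 for Slc25a5. The RNase I minus MNase difference of a genotype or medium effect was called for 0 members by edgeR in each of the 4 pairwise comparisons (7 in LIF/2i between genotypes, 2 in LIF between genotypes, 0 in WT and 4 in KI had an unadjusted p under 0.05), where 0.483% (0.0920% higher, 0.391% lower), 0%, 0.00767% and 0% of 13045 genes were.

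**Figure D5:**
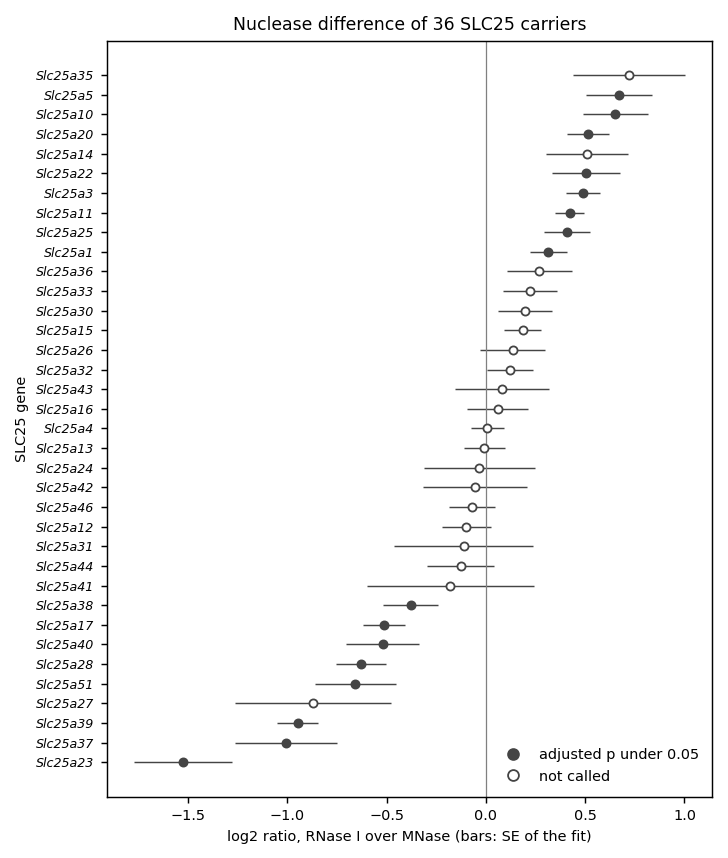
Log2 ratio of RNase I over MNase for 36 tested carriers within genotype and medium (points, with the SE of the fit; filled where edgeR's adjusted p was under 0.05; 16 libraries). The filled points run from Slc25a23 at -1.53 to Slc25a5 at 0.67, with Slc25a37, Slc25a39, Slc25a28 and Slc25a40 all on the negative side.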

How the data were processed

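Footprints were counted in 20 libraries of mESCs. The authors deposited raw counts of footprints in coding sequences, 1 transcript for each gene name, with no normalization, per the file headers. The tools named are UMI-tools 1.0.1, Bowtie 1.3.0 and cutadapt 3.4, per the submitters' processing notes, so molecular identifiers were available. Fragments were 25 to 40 nt long, per the labels' protocols. The genome build and the handling of reads that match several genes are not given in the sources used here. RNA-seq was not used here, so footprints combine RNA level and translation.

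Gene names were in capitals, 21755 were given mouse spelling through RefSeq and 661 were kept. Tests were run with edgeR 4.0.16 under R 4.3.3 (filterByExpr, TMM, quasi-likelihood test, two-sided, Benjamini-Hochberg adjustment over all tested genes, threshold 0.05) and, as an alternative, DESeq2 1.42.0. Each nuclease had its own fit, 12 MNase and 8 RNase I libraries, with a mean for each of 4 groups, at a biological coefficient of variation of 0.210 and 0.218. The nuclease was tested on 16 libraries with the genotype-medium group as a covariate. The fits were tested on simulated data. SE is the log2 fold change divided by the square root of F.

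The members and lists were chosen with earlier results of these data known. Values per library are given for up to 8 members called higher and 8 called lower with the smallest p in each MNase comparison and for the 5 smallest p between nucleases, and up to 3 partner genes of a list are named by smallest p. Members ranked by CPM per length of coding sequence were to be named too, but coding lengths were not used here. Slc25a31, Slc25a1 and Slc25a22 are shown as well, chosen after their values were seen. Same-numbered KI libraries of the 2 media deviated together, at correlations of 0.315 to 0.563 with MNase, so that the numbers pair the media within KI by the rule used (all above 0.1). Replicates 2 and 3 crossed between the media gave 0.404 and 0.367, so the correlations do not separate those 2 numbers. The labels do not state a pairing, and same-numbered WT libraries gave 0.0153 to 0.0778. Alternatives were other size factors, library totals, no filter, DESeq2, thinning to the smallest library, a replicate block, both nucleases in a single fit, and fits without 1 or more libraries. Results of 1 carrier and 3 partner genes are not reported here, although counts over the family and the lists include them.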

Additional observations from a re-analysis of the deposited data

Results flagged for a closer look

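The response of Slc25a20 to the medium differed between the genotypes with MNase, at an interaction of -1.16 on the log2 scale (SE 0.20, edgeR adjusted p = 0.023). It was listed because the effects of LIF against LIF/2i in KI and WT differed by a test of the difference itself. All 3 KI libraries in LIF lay below all 3 in LIF/2i, whereas all 3 WT libraries in LIF lay above all 3 in LIF/2i.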

How the results depend on the processing

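The 26 results given for named members had 533 values under alternatives. In 465 the call was kept, in 68 it was lost, and none reversed in direction. The 26 were picked because they were called, and the alternatives reuse most of the same libraries. Many fits without 1 library also dropped a library outside the comparison, so kept calls are not independent support. Calls on Slc25a3 in LIF/2i, Slc25a20 in LIF, Slc25a20, Slc25a36 and Slc25a3 in KI, Slc25a36 and Slc25a30 in WT and the 5 described nuclease differences were kept in every alternative, although with both nucleases fitted together Slc25a3 in LIF/2i was 0.41 in place of 0.68 and Slc25a36 in KI -0.62 in place of -1.09. Counts of called members moved by over 1.5 times as follows, with MNase first. KI against WT in LIF/2i gave 11 in place of 6 without KI replicate 1 in both media. KI against WT in LIF gave 4 with library totals, 6 with DESeq2, 8 without KI replicate 1 in both media and 6 with both nucleases fitted together, in place of 2. LIF against LIF/2i gave 11 in place of 5 in WT with both nucleases fitted together, and 4 with no filter and 5 after thinning in place of 8 in KI. The interaction gave 2 in place of 1 without KI replicate 1 in both media, Slc25a12 being the second. With RNase I, KI against WT gave 1 in LIF/2i and 2 in LIF, each with no filter and with DESeq2, in place of 0. LIF against LIF/2i gave 4 with no filter, 2 with DESeq2 and 0 after thinning in WT in place of 1, and 2 with no filter and 1 with DESeq2 in KI in place of 0. The causes of these moves were not tested. Shares of all genes called under the alternatives were not recorded, so the moved counts are not read as particular to the carriers.

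Fits that left out 1 library gave 3 (without KI in LIF/2i replicate 2) to 9 calls in LIF/2i between genotypes, 2 to 5 in LIF (5 without replicate 1 of KI in either medium), 2 to 7 in WT (2 without WT in LIF replicate 2 or WT in LIF/2i replicate 1), 3 to 10 in KI (3 without KI in LIF replicate 2 or 3 or KI in LIF/2i replicate 2) and 0 to 1 in the interaction, all with MNase. With RNase I they gave 0 to 1 in LIF/2i, 0 to 0 in LIF, 0 to 3 in WT, 0 to 1 in KI and 0 to 0 in the interaction, and for the nuclease 13 to 16. With the replicate number as a block in all groups, MNase gave 7 calls in LIF/2i, 3 in LIF, 7 in WT, 9 in KI and 1 in the interaction, and with the block within KI 11 in KI. The block gave 1 call in WT and 0 elsewhere with RNase I, and 17 for the nuclease. Depth limits Slc25a27, Slc25a41 and the 10 members that neither fit tested.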

Other observations

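Slc25a34, a carrier whose substrate is unsettled and which was too low to test, was chosen after its values were seen. With MNase it was at 0.154, 0.434 and 0.112 CPM in KI in LIF and 0.456, 1.08 and 0.703 CPM in WT in LIF, and at 0.153, 0.128 and 0.141 CPM in KI in LIF/2i and 1.42, 0.880 and 0.492 CPM in WT in LIF/2i. With RNase I it had 0 counts in both KI libraries in LIF, against 1.13 and 0.984 CPM in WT. By library total, 3 counts in those KI libraries are 1.31 and 1.53 CPM, so 0 in either allows a level above both WT readings. In LIF/2i it was at 0.614 CPM and 0 in KI with RNase I, against 0.950 and 1.85 CPM in WT. The KI readings lay below the WT readings in each medium with each nuclease, within that limit and from 1 to 4 counts in each MNase library. With MNase the genotypes did not overlap, in either direction, in 39.8% of all tested genes in LIF/2i and 35.5% in LIF. With RNase I the shares were 43.5% and 46.5%. With no filter on low counts, KI against WT with MNase gave -2.49 in LIF/2i (SE 0.86; adjusted p = 0.053 by edgeR) and -1.66 in LIF (SE 0.80; adjusted p = 0.23 by edgeR) on the log2 scale, from 26 counts over the 12 MNase libraries. With RNase I, from 56 counts, it was not called in either medium (edgeR adjusted p = 0.51 in LIF/2i and 0.38 in LIF).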
